A study of Mus musculus with 12 samples.

Results

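The genes *Nmral1*, *Galnt10*, *Mpst*, *Madd*, *Sri* and *Lsr*, whose RNA fell to low residual levels in mouse embryonic stem cells (mESCs) after induced deletion of *Prdm10*, were followed library by library. They are 6 of the 54146 genes in each file, were matched by gene symbol, and were selected on their low counts after hydroxytamoxifen. Their fold changes between hydroxytamoxifen (OHT) and ethanol (EtOH) are therefore given as a description, without a test. All cells carried Prdm10F/F; Rosa26-CreERT2 on a C57BL/6 background, that is, floxed *Prdm10* alleles and a Cre recombinase that enters the nucleus when it binds OHT. Cells received 50 nM 4-OHT or an equal volume of EtOH for 24 h, and RNA was taken at Day 2 or Day 4, which gave Day2_EtOH, Day2_OHT, Day4_EtOH and Day4_OHT with 3 libraries each. The labels give the genotype of the OHT libraries as Prdm10del/del; Rosa26-CreERT2. OHT-treated cells without floxed alleles were not analysed here, so that effects of OHT or of Cre and effects of the deletion cannot be told apart. In a bulk sample, fewer cells that express a gene and less RNA per cell cannot be told apart either.

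PRDM10 is a zinc finger protein of the PRDM family that binds DNA, largely at promoters, and acts on transcription. The 6 genes serve unrelated functions. *Nmral1* encodes a sensor of the NADPH to NADP balance, and *Galnt10* encodes a Golgi enzyme that attaches the first sugar of mucin-type O-glycans. *Mpst* encodes mercaptopyruvate sulfurtransferase, a source of hydrogen sulfide. *Madd* encodes a guanine nucleotide exchange factor for RAB3 and RAB27 that also binds a TNF receptor, *Sri* encodes the calcium-binding penta-EF-hand protein sorcin, and *Lsr* encodes a lipoprotein receptor that recruits tricellulin to tricellular junctions. All 6 are on the study's list of genes near PRDM10 peaks in chromatin immunoprecipitation, a list of 633 genes of which 627 are in the files. This list may have led to their choice, and their presence on it is no result.

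The libraries held between 35017667 and 41409992 expected counts, the estimated number of read pairs per gene. No pair of replicates agreed within sampling noise (mean chi-square of 3.41 or more across 11616 genes). The summed TPM of 10 pluripotency markers, with *Pou5f1* and *Sox2* among them, lay between 2484 and 2969 in the 12 libraries. Of these 10 markers, DESeq2 called 1 higher and 4 lower at Day 2 (9.17% and 10.6% of all genes), and 7 higher and 1 lower at Day 4 (23.5% and 21.7%), at an adjusted p below 0.05. The 8 fibroblast or feeder markers summed to between 1.16 and 3.56 TPM, with 2.59 to 3.43 in Day4_EtOH and 1.16 to 1.61 in Day4_OHT, and endoderm and mesoderm markers each to less than 3 TPM in every library. Trophectoderm markers summed to between 31.3 and 32.2 TPM in Day4_EtOH and between 37.7 and 39.2 TPM in Day4_OHT. Neuroectoderm markers summed to between 71 and 75.9 TPM in Day4_EtOH and between 44.4 and 46.3 TPM in Day4_OHT, with 2 of 6 called lower. The part of these marker sums, which differed between the Day 4 groups, in the results below was not tested. The normalised count of the whole *Prdm10* gene rose in the libraries labelled OHT, from 801 ± 29.4 (SD, n = 3) to 2173 ± 80.3 (SD, n = 3) at Day 2 and from 869 ± 45.8 (SD, n = 3) to 2012 ± 67.5 (SD, n = 3) at Day 4. Reads of exon 5, the floxed exon, are not separate in a gene count, so that this value does not check the deletion, and the groups are named by their labels.

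The stretches of promoter most like the DNA that PRDM10 bound in the study's gel-shift assays are shown first, because all 6 genes are on the list of genes near PRDM10 peaks, which also counts peaks inside a gene. In the 28-base bound probe (WT) and its mutated form (MUT), capitals mark the 8 bases at which they differ.
WT: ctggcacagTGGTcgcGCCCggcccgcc
MUT: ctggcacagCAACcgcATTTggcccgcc
In the next 3 lines, capitals mark the bases that match the WT probe in the best ungapped match within the RefSeq promoter window of *Galnt10* (chr11:57645389-57645416, plus strand), *Mpst* (chr15:78406610-78406637, plus strand) and *Lsr* (chr7:30973554-30973581, minus strand), on GRCm38.p6.
Galnt10: gTGaCACgGTGGagGCGCCCGGCtCcCC
Mpst: gTGaCACtGgGGcaGCGCgCaaCCCGgC
Lsr: CTGGCAaAGcGGTCaCttggttCagGCC
Each window holds 250 bases before a gene start and 50 after it, and 5 of the 6 genes matched 8 windows, while *Nmral1* matched none. The *Galnt10* stretch, 53 to 26 bases before the start, matched the probe at 21 of 28 bases and at 7 of the 8 bases that distinguish WT from MUT. A match of 21 or more bases was found in 14 of 32851 promoter windows (0.0426%). *Mpst* matched at 18 bases (4.93% of windows match as well), *Lsr* at 17 (15.2%), *Madd* at 16 (34.4%) and *Sri* at 13 (94.3%), with a median of 15 bases over all windows. Of the 8 distinguishing bases, the best match of *Madd* also held 7, those of *Mpst* and *Sri* held 5 each, and that of *Lsr* held 3. The exact spaced pattern TGGTNNNGCCC, searched on both strands, was in none of the 8 windows and in 476 of all 32851 (1.45%). It was in the windows of 57 of 439 genes on the bound list (13%), and of 458 of all 27025 genes with a window (1.69%). The paper found the motif of its probe in the same PRDM10 peaks that define this list. The higher share on the list is therefore no separate result. These matches are descriptions of letters within 300 bases and say nothing of where PRDM10 bound.

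The 250 bases before the start of *Galnt10* (chr11:57645192-57645441, plus strand, GRCm38.p6) are given because this promoter held the closest match, which stands in capitals.
Galnt10 upstream: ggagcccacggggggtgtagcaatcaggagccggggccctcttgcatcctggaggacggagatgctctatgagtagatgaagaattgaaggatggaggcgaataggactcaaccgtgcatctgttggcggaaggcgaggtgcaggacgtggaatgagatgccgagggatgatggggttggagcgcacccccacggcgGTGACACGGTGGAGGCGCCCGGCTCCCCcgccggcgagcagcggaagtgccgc
The window around this start had a GC content of 66% with 28 CpG dinucleotides, against medians of 52.7% and 7 over all windows. The windows of *Mpst* nearest its first start and of *Lsr* were GC-rich too (59.3% and 67.3%), whereas that of *Sri* had 43.7% GC and 5 CpG. The WT probe is itself rich in G and C, and its matches were not compared with windows of like GC content.

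The levels of the 6 genes in EtOH are given first. Per transcript length, the mean over the 6 EtOH libraries was 16.3 TPM for *Nmral1*, 15.4 for *Sri*, 12.8 for *Lsr*, 10.4 for *Mpst*, 6.23 for *Galnt10* and 2.56 for *Madd*. Of the 11555 genes that passed the Day 4 filter, a mean normalised count above 100, between 15.4% (*Madd*) and 61% (*Nmral1*) had a lower TPM. All 6 fell: the libraries labelled OHT lay below every EtOH library on both days for each gene, where 26.9% of all genes at Day 2 and 29.5% at Day 4 had this order. With DESeq2, all 6 were called lower on both days (adjusted p below 0.05, same filter), against 10.6% of genes at Day 2 and 21.7% at Day 4; both counts follow from how the genes were chosen.

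*Nmral1* (ENSMUSG00000063445.14, chr16:4710059-4719356, minus strand) lost most. Its normalised counts, which are counts divided by the library's size factor, were 771, 816 and 795 in Day2_EtOH and 37.9, 33.8 and 42.5 in Day2_OHT. At Day 4 they were 1000, 900.1 and 991 in EtOH and 2.96, 2.97 and 7.44 in OHT. Only 14 read pairs remained over the 3 Day4_OHT libraries, compared with 2860 over the 3 Day4_EtOH libraries. The residual level, the OHT count as percent of the EtOH mean of its day, was thus 4.79 ± 0.548% (SD, n = 3) at Day 2 and 0.462 ± 0.268% (SD, n = 3) at Day 4. An exact Poisson 95% interval for the summed Day 4 count reached from 0.256% to 0.786%. The log2 fold change was -4.39 (SE 0.16) at Day 2 and -7.74 (SE 0.40) at Day 4, where *Nmral1* ranked 1 of 11555 genes by most negative value. One library, Day4_OHT replicate 3, lay above the other two, and without it the Day 4 value was -8.35.

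*Galnt10* (ENSMUSG00000020520.14, chr11:57645442-57787514, plus strand) was reduced more gradually. Its normalised counts were 706, 701 and 661 in Day2_EtOH, 74.8, 79.8 and 99.1 in Day2_OHT, 817, 821 and 795 in Day4_EtOH, and 14.8, 17.8 and 14.9 in Day4_OHT. The residual level was 12.3 ± 1.86% (SD, n = 3) at Day 2 and 1.95 ± 0.21% (SD, n = 3) at Day 4. The highest Day4_OHT library lay 44.7-fold below the lowest Day4_EtOH library, and the log2 fold changes were -3.03 (SE 0.13) and -5.68 (SE 0.22).

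*Mpst* (ENSMUSG00000071711.12, chr15:78406416-78414013, plus strand) followed nearly the same course as *Galnt10*. Its normalised counts were 596, 567 and 511 in Day2_EtOH, 73.8, 73.2 and 67.5 in Day2_OHT, 546, 487 and 472 in Day4_EtOH, and 9.87, 11.9 and 9.30 in Day4_OHT. The residual levels were 12.8 ± 0.622% (SD, n = 3) and 2.06 ± 0.268% (SD, n = 3). Log2 fold changes were -2.96 (SE 0.14) at Day 2 and -5.61 (SE 0.28) at Day 4. The library values of *Mpst* and *Galnt10* overlapped on both days, as percent of EtOH.

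*Madd* (ENSMUSG00000040687.16, chr2:91137360-91183837, minus strand), the gene with the lowest EtOH level and the most annotated transcripts (28), had the widest spread of residual levels at Day 2. Its normalised counts were 397, 406 and 352 in Day2_EtOH, 37.9, 37.5 and 22.9 in Day2_OHT, 443, 364 and 442 in Day4_EtOH, and 14.8, 7.91 and 6.51 in Day4_OHT. Day2_OHT replicate 3 and Day4_OHT replicate 1 stood apart from the other libraries of their groups. Residual levels were 8.52 ± 2.23% (SD, n = 3) and 2.34 ± 1.07% (SD, n = 3), and log2 fold changes -3.54 (SE 0.20) and -5.43 (SE 0.29).

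*Sri* (ENSMUSG00000003161.15, chr5:8046078-8069379, plus strand) fell early and then less. Its normalised counts were 644, 601 and 624 in Day2_EtOH, 52.9, 58.2 and 54.5 in Day2_OHT, 664, 598 and 603 in Day4_EtOH, and 34.55, 26.7 and 21.4 in Day4_OHT. The residual level of 8.85 ± 0.438% (SD, n = 3) at Day 2 was close to that of *Madd*, and that of 4.43 ± 1.07% (SD, n = 3) at Day 4 was above those of *Nmral1*, *Galnt10* and *Mpst* in every library. Log2 fold changes were -3.50 (SE 0.15) and -4.50 (SE 0.19).

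*Lsr* (ENSMUSG00000001247.16, chr7:30957770-30973464, minus strand) was reduced but not almost lost. Its normalised counts were 1155, 1220 and 1132 in Day2_EtOH, 292, 298 and 323 in Day2_OHT, 1024, 992 and 1099 in Day4_EtOH, and 154, 153 and 159 in Day4_OHT. The residual level was 26.0 ± 1.43% (SD, n = 3) at Day 2 and 15.0 ± 0.304% (SD, n = 3) at Day 4, above that of each of the other 5 genes in every library, and 482 read pairs remained over the Day4_OHT libraries. With log2 fold changes of -1.94 (SE 0.09) and -2.74 (SE 0.10), *Lsr* ranked 21 of 11555 genes at Day 4, whereas *Galnt10*, *Mpst*, *Madd* and *Sri* ranked 2, 3, 4 and 8. Among genes that passed the filter, the 3 outside the 6 with the most negative Day 4 values were *Hap1* (-5.23, SE 0.13), *Adgrv1* (-5.16, SE 0.18) and *Selenow* (-5.06, SE 0.19), at ranks 5, 6 and 7.

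**Figure D1:**
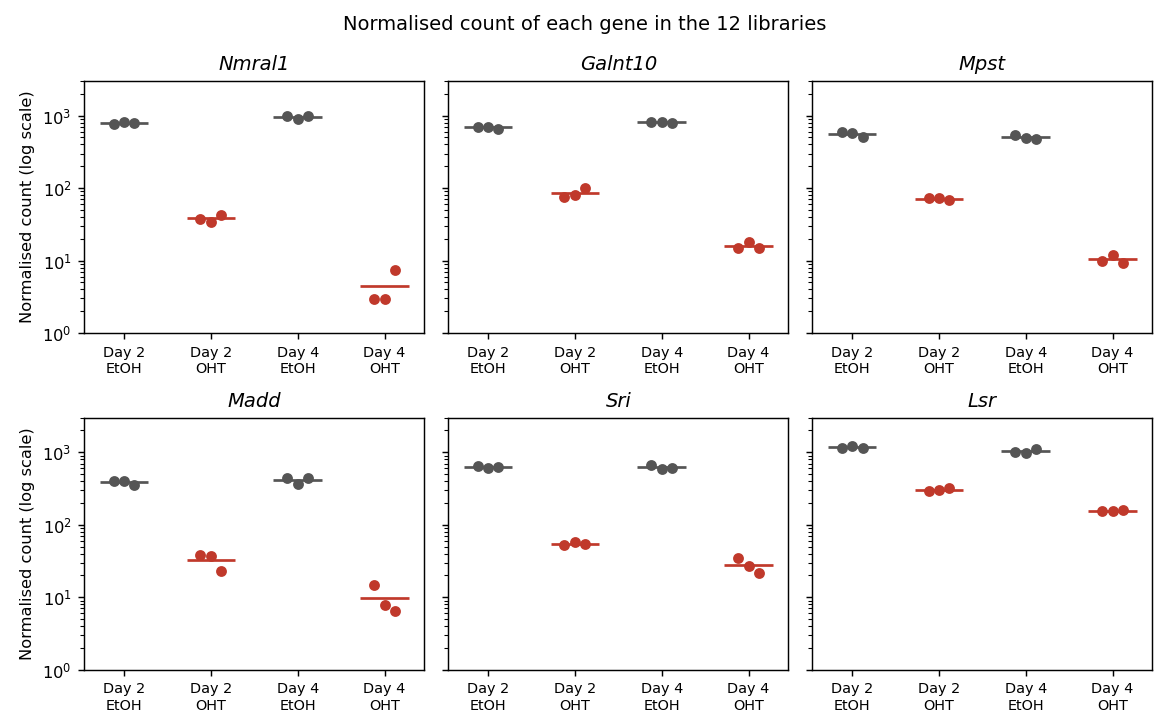
Normalised count (log scale) of each gene in the 12 libraries, by day and label; points are libraries and horizontal lines are means of 3. All OHT points (red) lie below all EtOH points (grey), and at Day 4 they reach from 2.96 for *Nmral1* to 159 for *Lsr*.

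The pace of loss was compared as the residual level at Day 2 and at Day 4. Most of the loss was present at Day 2 for every gene. As a share of the Day 4 loss it ranged from 87% for *Lsr* to 95.6% for *Nmral1*. From Day 2 to Day 4 the residual level nevertheless fell a further 10.4-fold for *Nmral1*, 6.29-fold for *Galnt10*, 6.22-fold for *Mpst*, 3.64-fold for *Madd*, 2.00-fold for *Sri* and 1.74-fold for *Lsr*. In residual levels this later step was thus largest for *Nmral1*, whereas *Sri*, with 95.4% of its Day 4 loss present at Day 2, and *Lsr* had the smallest. Without Day4_OHT replicate 3 the step of *Nmral1* was 15.6-fold. The EtOH mean of *Nmral1*, by which its residual level is divided, rose from 794 at Day 2 to 964 at Day 4. In OHT counts alone its step was 8.54-fold, compared with 6.91-fold for *Mpst*. On the fitted scale, the log2 difference between Day4_OHT and Day2_OHT was -3.08 (SE 0.54) for *Nmral1*, -2.79 (SE 0.37) for *Mpst*, -2.41 (SE 0.32) for *Galnt10*, -1.76 (SE 0.48) for *Madd*, -1.0 (SE 0.32) for *Sri* and -0.97 (SE 0.13) for *Lsr*. For *Nmral1* it was -3.68 without Day4_OHT replicate 3, and for *Madd* -1.11 with the effective lengths estimated by RSEM as offsets.

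The order of the residual levels changed between the days. At Day 2 it was *Nmral1*, *Madd*, *Sri*, *Galnt10*, *Mpst*, *Lsr* from lowest to highest, and the libraries of *Madd* and *Sri*, and of *Galnt10* and *Mpst*, overlapped. At Day 4 it was *Nmral1*, *Galnt10*, *Mpst*, *Madd*, *Sri*, *Lsr*. There only *Nmral1* and *Lsr* were clear of their neighbours in the order, while *Galnt10*, *Mpst* and *Madd* overlapped, as did *Madd* and *Sri* (3.56% in the highest *Madd* library and 3.44% in the lowest *Sri* library). *Sri* therefore stood below *Galnt10* and *Mpst* at Day 2 and above them at Day 4, in every library on both days, in counts. The difference of the log2 fold change between the days, fitted over 12 libraries, was -3.35 (SE 0.42) for *Nmral1*, -2.65 (SE 0.25) for *Galnt10*, -2.64 (SE 0.31) for *Mpst*, -1.88 (SE 0.35) for *Madd*, -1.01 (SE 0.23) for *Sri* and -0.80 (SE 0.12) for *Lsr*, compared with a median of 0.03 over 11616 genes. The value of *Nmral1* was -3.95 without Day4_OHT replicate 3. These values are built from the contrasts on which the genes were chosen and were not tested.

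**Figure D2:**
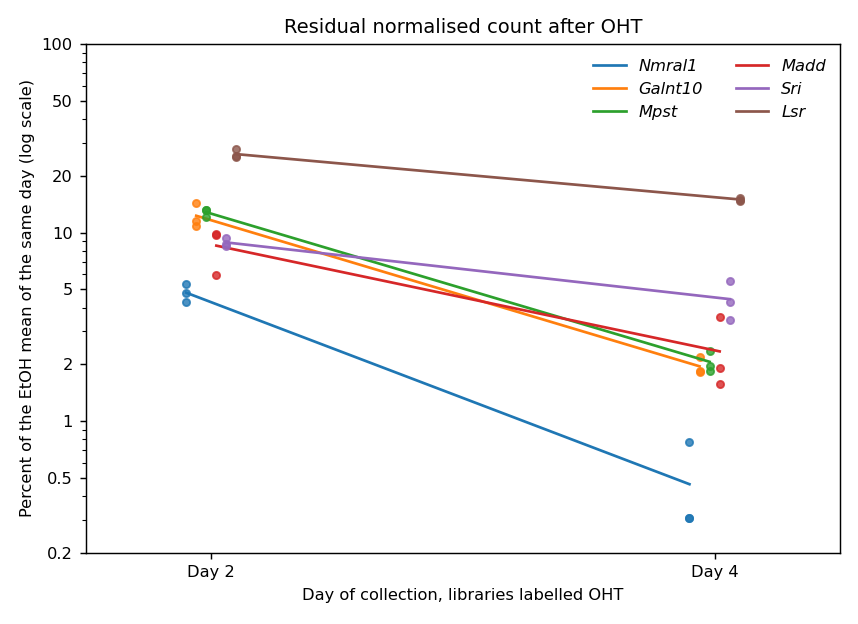
Residual normalised count of the OHT libraries as percent of the EtOH mean of the same day (log scale), with points for libraries and lines between the means. The line of *Sri* crosses those of *Galnt10* and *Mpst* between the days, and *Lsr* stays above the others at 26.0% and 15.0%.

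Without OHT the genes changed little between the days. The EtOH libraries were also the controls of the contrasts on which the genes were chosen. The p-values in this paragraph are therefore not independent of that choice. DESeq2 called *Nmral1* higher at Day 4 than at Day 2 in EtOH (log2 0.28, SE 0.08, DESeq2 adjusted p = 0.00137). *Galnt10* was called higher (log2 0.23, SE 0.08, DESeq2 adjusted p = 0.0119), and *Lsr* was called lower (log2 -0.17, SE 0.07, DESeq2 adjusted p = 0.0403). *Mpst* (DESeq2 adjusted p = 0.227), *Madd* (DESeq2 adjusted p = 0.524) and *Sri* (DESeq2 adjusted p = 0.966) did not pass. A rise or fall was each common here, at 20.6% and 20.5% of 11572 genes. With the replicate number as a block, *Nmral1* alone was called of the 6. The call of *Lsr* was lost without any 1 of Day2_EtOH replicates 1, 2 and 3 and Day4_EtOH replicates 1 and 2 (DESeq2 adjusted p up to 0.233), with total counts and with effective lengths as offsets, and that of *Galnt10* without Day2_EtOH replicate 3 (DESeq2 adjusted p = 0.0851) or Day4_EtOH replicate 2 (DESeq2 adjusted p = 0.071).

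For 0 of the 6 genes did a change in transcript length pass the limma test, although *Madd* and *Mpst* had lower length estimates in all OHT libraries. The effective length is the mean number of positions at which a read pair can start, weighted over the transcripts found in a library. For *Madd* it was 3658, 4209 and 3306 bases in Day2_EtOH and 2095, 1707 and 2547 in Day2_OHT. At Day 4 it was 3200.2, 3482 and 3187 bases in EtOH and 1653, 1324 and 900 in OHT. All OHT libraries lay below all EtOH libraries on both days, an order that 6.91% of 11643 genes had at Day 2 and 5.23% of 11554 at Day 4. The log2 difference was -0.83 (SE 0.18, limma adjusted p = 0.357) at Day 2 and -1.39 (SE 0.24, limma adjusted p = 0.182) at Day 4, neither of which passed the threshold.

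*Mpst* had an effective length of 1137, 1109 and 1137 bases in Day2_EtOH and 1063, 1088 and 1047 in Day2_OHT, and of 1101, 1088 and 1126 in Day4_EtOH and 891, 851 and 807 in Day4_OHT. Its groups did not overlap on either day. The log2 differences were -0.08 (SE 0.02, limma adjusted p = 0.377) and -0.38 (SE 0.04, limma adjusted p = 0.0798). *Nmral1* was slightly shorter in every Day2_OHT library (1147 to 1169 bases) than in Day2_EtOH (1196 to 1207), and at Day 4 its 3 OHT estimates were scattered from 862 to 1303 bases. For *Galnt10*, *Sri* and *Lsr* the lengths of the groups overlapped on both days. With limma, 0 of the 6 genes passed, where 0.0172% of all genes were called shorter at Day 2 and 0.0433% at Day 4, and 0% and 0.0346% longer. At an unadjusted p below 0.05, *Nmral1*, *Mpst* and *Madd* were shorter at Day 2, where 4.88% of all genes passed in this direction, and *Mpst* and *Madd* at Day 4, where 3.76% did. The Day 4 lengths in OHT rest on 3 to 8 read pairs a library for *Nmral1*, 10 to 12 for *Mpst* and 7 to 15 for *Madd*.

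TPM divides by this length, and residual levels were recomputed on that scale. In TPM, *Madd* kept 16.8 ± 7.32% (SD, n = 3) at Day 2 and 5.69 ± 1.20% (SD, n = 3) at Day 4, where counts gave 8.52% and 2.34%. *Mpst* kept 14.4 ± 1.03% (SD, n = 3) and 2.605 ± 0.306% (SD, n = 3). The residual level of *Madd* at Day 4 was thus above the mean of *Sri* in TPM, 4.58 ± 1.86% (SD, n = 3), and below it in counts, and their place in the order depends on the unit. At Day 2 *Madd* moved in TPM above *Sri* (10.6%), *Galnt10* (12.9%) and *Mpst* (14.4%). In TPM the libraries of *Sri* also overlapped those of *Galnt10* at Day 2 (11.9% in the highest *Sri* and 11.4% in the lowest *Galnt10* library) and those of *Mpst* at Day 4 (2.92% in the lowest *Sri* and 2.95% in the highest *Mpst* library). The posterior SD of the counts, which grows where reads are shared with other genes, was at most 0.23 in any library for any of the 6 genes.

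**Figure D3:**
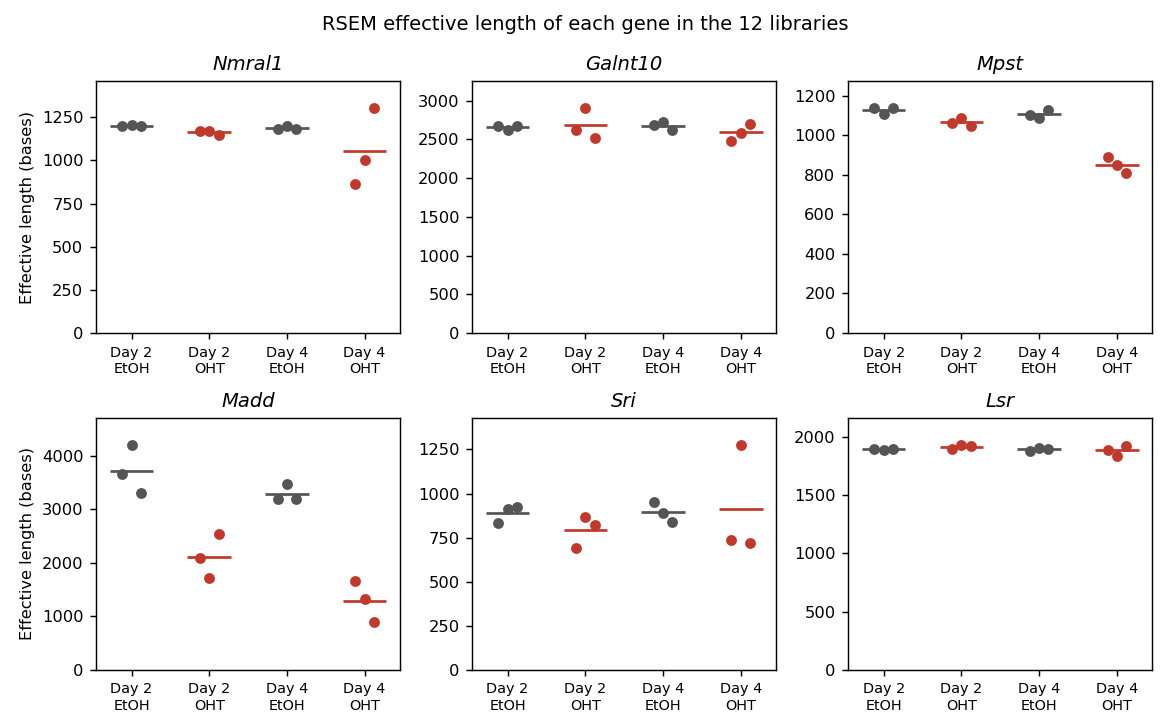
RSEM effective length in bases of each gene in the 12 libraries, each panel with its own axis from 0; points are libraries and lines means of 3. No difference in length passed the limma test. In *Madd* all OHT libraries lie below all EtOH libraries on both days, in *Mpst* the gap widens at Day 4, and in *Lsr* all points lie close together.

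Neighbours that passed the filter changed less than the gene beside them. For each gene the nearest protein-coding gene on either side was examined, with any other gene that shared its PRDM10 peak, 15 neighbours in all, of which 8 passed the filter on both days. At Day 2, 1 of the 8 was called higher and 2 lower, and at Day 4, 2 were higher and 2 lower, compared with 9.17% higher and 10.6% lower among all genes at Day 2 and 23.5% and 21.7% at Day 4. Their log2 fold changes reached from -1.53 to 0.43 at Day 4.

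*Tst*, the neighbour of *Mpst*, had the most negative value among the 8. It encodes the sulfurtransferase rhodanese, a relative of *Mpst*, starts 509 bases from it on the opposite strand (ENSMUSG00000044986.10, chr15:78399556-78405907, minus strand) and shares its PRDM10 peak. Its normalised counts were 704, 740 and 647 in Day2_EtOH and 403, 450 and 410 in Day2_OHT, and 622, 643 and 616 in Day4_EtOH and 238, 224 and 192.5 in Day4_OHT. It kept 60.4% at Day 2 (log2 -0.73, SE 0.09, DESeq2 adjusted p = 1.66e-12) and 34.8% at Day 4 (log2 -1.53, SE 0.11, DESeq2 adjusted p = 3.03e-44). The fall deepened between the days (log2 difference -0.80, SE 0.13, DESeq2 adjusted p = 2.62e-08, where 13.6% of genes were called lower and 18.7% higher by this test), in the direction seen for *Mpst*, which kept 12.8% and 2.06%.

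*Hmox2*, a heme oxygenase gene that starts 7005 bases from *Nmral1* on the opposite strand, kept 86.8% at Day 2 (log2 -0.20, SE 0.07, DESeq2 adjusted p = 0.0288) and 80.5% at Day 4 (log2 -0.32, SE 0.06, DESeq2 adjusted p = 6.35e-06). Its Day 2 call was lost without any 1 of 5 libraries, Day2_EtOH replicates 1, 2 and 3 and Day2_OHT replicates 1 and 2 (DESeq2 adjusted p between 0.0579 and 0.182), and with the replicate number as a block (DESeq2 adjusted p = 0.146), with total counts and with effective lengths as offsets. On the other side of *Nmral1*, *Dnaja3*, which encodes a mitochondrial co-chaperone, did not pass on either day (log2 -0.09, SE 0.05, and -0.03, SE 0.04). Beside *Lsr*, the transcription factor gene *Usf2* rose at Day 4 (log2 0.43, SE 0.07, DESeq2 adjusted p = 2.17e-08), and beside *Sri*, *Adam22* rose at Day 4 (log2 0.43, SE 0.10, DESeq2 adjusted p = 5.35e-05). Neither passed at Day 2 (log2 0.16, SE 0.08, and 0.21, SE 0.11). *Mfap3*, 111627 bases from *Galnt10*, rose at Day 2 (log2 0.20, SE 0.05, DESeq2 adjusted p = 0.00316) and did not pass at Day 4 (log2 0.09, SE 0.05). *Sap30l* and *Kctd17* passed on neither day. At Day 4 edgeR nevertheless called *Kctd17* lower (edgeR adjusted p = 0.0105), as did 1 DESeq2 fit over all 12 libraries (DESeq2 adjusted p = 0.0400).

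The other neighbours were hardly expressed. *Fam187b*, which starts 326 bases from *Lsr* on the opposite strand and shares its peak, had normalised counts of 14.4, 16.8 and 26.3 in Day4_EtOH and 1.97, 0.988 and 1.86 in Day4_OHT, with no overlap on either day. It kept 16.5% at Day 2 and 8.38% at Day 4 of its EtOH mean, less than *Lsr*, but its mean was below the minimum of 100 and it was not called. *Steap4*, upstream of *Sri*, was at 21.7, 27.7 and 14.2 in Day4_EtOH and 3.95, 5.93 and 7.44 in Day4_OHT. *Nr1h3*, which shares the peak of *Madd* and encodes the nuclear receptor LXR alpha, had a mean of 24.99 in Day4_EtOH and 24.4 in Day4_OHT, and *Mybpc3* of 55.8 and 40.1. *4933424L21Rik*, an antisense gene that overlaps *Galnt10*, and *Gm15731* and *Gm15730* at *Sri*, had at most 2 read pairs in any library.

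**Figure D4:**
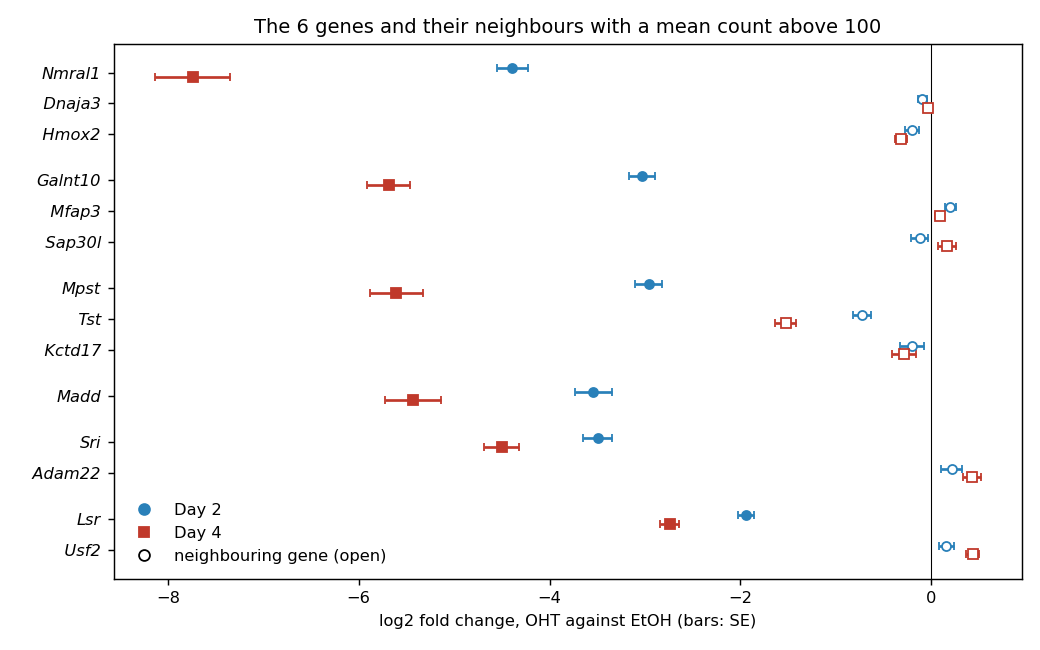
Log2 fold change of OHT against EtOH for each of the 6 genes (filled) and those of its neighbours that passed the filter (open), at Day 2 (blue circles) and Day 4 (red squares), with bars of 1 SE. *Tst*, beside *Mpst*, is, of those plotted, the neighbour farthest below 0, at -0.73 and -1.53.

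For the functional partners of these genes, 6 lists of genes from the pathway or family of each gene were read, 153 genes without the 6 themselves. A gene that rose or fell here was higher or lower in OHT than in EtOH of the same day. At Day 4, 111 passed the filter, and 29 were called higher (26.1%, against 23.5% of all genes) and 28 lower (25.2%, against 21.7%). At Day 2, 19 of 113 were higher (16.8%, against 9.17%) and 9 lower (7.96%, against 10.6%). The median log2 fold change over the list genes was 0.02 at Day 4, where that of all genes was 0.01.

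Among 14 genes of mucin-type O-glycosylation tested at Day 4, 4 rose (28.6%, against 23.5% of all genes) and 0 fell (against 21.7%), by the DESeq2 test and with a median log2 fold change of 0.16. *C1galt1*, which extends the first sugar to core 1, rose by 0.37 (SE 0.05, DESeq2 adjusted p = 2.45e-11), and *Galnt7*, another enzyme of the *Galnt10* family, by 0.33 (SE 0.06, DESeq2 adjusted p = 5.18e-08). The mean normalised count of *C1galt1* went from 2306 at Day 2 to 1545 at Day 4 in EtOH, and from 2314 to 1995 in OHT. At Day 2, 0 of 12 passed. Of 21 genes of cysteine and sulfide metabolism, 4 rose (19%) and 6 fell (28.6%) at Day 4, with *Tst* first and then *Cth*, the cystathionine gamma-lyase gene (log2 -0.58, SE 0.07, DESeq2 adjusted p = 1.18e-14).

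For the list around *Madd*, of RAB3 and RAB27 regulators and TNF receptor adaptors, 5 of 23 rose and 5 fell at Day 4 (21.7% each). Of all genes, 23.5% rose and 21.7% fell at Day 4. *Rab3il1*, an exchange factor for RAB3, rose (log2 1.09, SE 0.12, DESeq2 adjusted p = 1.42e-17), and *Dennd5b*, a DENN domain gene as is *Madd*, fell (log2 -0.64, SE 0.04, DESeq2 adjusted p = 4.78e-64). The mean normalised count of *Dennd5b* went from 3734 at Day 2 to 5760 at Day 4 in EtOH, and from 3511 to 3694 in OHT. Of 21 penta-EF-hand and calcium handling genes, 5 rose (23.8%) and 7 fell (33.3%). *Itpr2* and *Itpr3*, which encode inositol trisphosphate receptors of the endoplasmic reticulum, both rose. The values were log2 1.02 (SE 0.14, DESeq2 adjusted p = 5.55e-12) for *Itpr2* and 0.53 (SE 0.05, adjusted p = 1.01e-23 by DESeq2) for *Itpr3*.

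In the list of junction and lipoprotein receptor genes around *Lsr*, 5 of 15 rose and 5 fell (33.3% each). Again, 23.5% of all genes rose and 21.7% fell at Day 4. *Apoe*, which encodes a ligand of lipoprotein receptors, rose from a mean normalised count of 6106 to 19353 at Day 4 (log2 1.66, SE 0.03), and the claudin gene *Cldn4* from 946 to 1483 (log2 0.65, SE 0.06, DESeq2 adjusted p = 8.16e-23). At Day 2 the means of *Cldn4* were 1384 in EtOH and 1604 in OHT, both above those of Day 4. In the list of argininosuccinate and NADPH genes around *Nmral1*, 6 of 17 rose (35.3%) and 5 fell (29.4%). *Mthfd2*, a mitochondrial folate enzyme gene, fell (log2 -1.05, SE 0.04, DESeq2 adjusted p = 4.5e-143), and *Idh2*, a mitochondrial source of NADPH, rose (log2 0.72, SE 0.04, DESeq2 adjusted p = 1.65e-62). The mean normalised count of *Mthfd2* went from 3819 at Day 2 to 5669 at Day 4 in EtOH, and from 3032 to 2749 in OHT. The medians of the 6 lists reached from -0.03 to 0.16 at Day 4.

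The genes most like each of the 6 over the 12 libraries were found by the root mean square difference of log2(normalised count + 1), each gene relative to its EtOH mean. For *Lsr* they were *Sash1* (0.15) and *Fam173b* (0.16), and for *Sri* *Ptov1* (0.17) and *Ankrd13a* (0.25). *Adgrv1* (0.26) and *Frat2* (0.34) were nearest to *Galnt10*, and the same pair to *Mpst* (0.36 and 0.36). *Galnt10* and *Mpst* were still closer to each other, at 0.23. *Hap1* (0.32) and *Adgrv1* (0.38) were nearest to *Madd*. *Nmral1* had no close match, since the nearest of all genes outside the 6, *Hap1*, differed by 1.31.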

How the data were processed

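RNA-seq libraries were stranded, made from total RNA and sequenced as paired reads. According to the methods and the submitters' processing notes, reads were mapped to GRCm38.p6 with STAR 2.6.0c and quantified over GENCODE vM18 with RSEM, 1 library at a time. The authors deposited expected counts, which need not be whole, TPM (abundances scaled within a library) and effective lengths, all made by RSEM without pooling. Of the deposited tables of DESeq2 (1.22.2) comparisons, which hold fold changes and p-values of each day, only gene symbols were used. These covered 54079 of 54146 genes, as did positions from GENCODE vM21 on GRCm38.

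Expected counts were rounded and tested with DESeq2 1.42.0 in R 4.3.3 (Wald test, median-of-ratios size factors, no shrinkage), each day's 3 OHT against 3 EtOH libraries, the days within EtOH or OHT, and the interaction over 12 libraries. A gene was called when its adjusted p (Benjamini-Hochberg) was below 0.05, provided that its normalised counts averaged over 100. Log2 effective lengths were tested with limma 3.58.1 (eBayes with trend) over genes above the same minimum. Printed normalised counts share size factors over all 12 libraries. The DESeq2, edgeR and limma fits were tried on simulated data, whereas the gene matching, the choice of neighbours and the promoter search were not. Per-gene precision follows from the counts, and the Poisson interval covers counting error only, since reads had no molecular identifiers. Nothing in the labels says that libraries came from separate cultures, so that p-values measure the spread between these libraries, which may be technical.

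The 6 genes, the pathway and marker lists and the tests were chosen with earlier results of these data known. Other genes were named by rule: *Prdm10*, positional neighbours and genes of the same peak, the 2 called genes of each list with the largest absolute Day 4 change, the 2 genes of nearest pattern, and the 3 most negative Day 4 values outside the 6. Promoter windows are from RefSeq (GRCm38.p6), and probe sequences and the names of bound genes are from the study's supplementary files. Alternatives were edgeR 4.0.16 (quasi-likelihood, TMM, genes with a mean count above 10), TMM factors or total counts, effective lengths as offsets, no minimum mean, the replicate number as a block, all 12 libraries in 1 fit, each library left out, TPM for residual levels, a minimum of 500 or no trend for lengths, and a prior count of 5 for patterns.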

Additional observations from a re-analysis of the deposited data

Results flagged for a closer look

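Among *Prdm10* and the 8 neighbours that passed the filter, the OHT effect of 3 differed between the days by the DESeq2 interaction test over 12 libraries, a test that called 18.7% of all 11616 genes higher and 13.6% lower. *Tst*, beside *Mpst*, fell further at Day 4, by a log2 difference of -0.80 (SE 0.13, DESeq2 adjusted p = 2.62e-08), and stayed called in each alternative (adjusted p between 2.27e-09 and 5.65e-05). *Usf2*, beside *Lsr*, was higher at Day 4 by 0.28 (SE 0.09, DESeq2 adjusted p = 0.0111), a call that was lost without Day2_EtOH replicate 2 (log2 0.23, DESeq2 adjusted p = 0.0850, with 0.00614 to 0.0850 over all alternatives). *Prdm10* itself rose less at Day 4, by a log2 difference of -0.23 (SE 0.08, DESeq2 adjusted p = 0.0224).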

How the results depend on the processing

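All 6 genes stayed called lower on both days under every alternative run, and none of their log2 fold changes turned. Both follow from how the genes were chosen. Of all genes, 10.6% at Day 2 and 21.7% at Day 4 were called lower by DESeq2. Effective lengths as offsets moved *Madd* most, to -2.69 at Day 2 and -4.08 at Day 4, and *Mpst* to -5.22 at Day 4. In TPM the residual level of *Mpst* was 14.4% and 2.605% at Day 2 and Day 4, that of *Madd* 16.8% and 5.69%, and that of *Sri* 10.6% at Day 2, while the residual level of *Lsr* at Day 4 ranged from 14.6% to 15.4% with a library left out. Replicate numbers did not pair the libraries, since the deviations of same-numbered libraries correlated between -0.385 and 0.285 and were above 0.1 in only some pairs. With the replicate block, 1 of the 6 genes was called between the days in EtOH instead of 3 (1 to 3 with a library left out), and 1 neighbour was called lower at Day 2 instead of 2. This neighbour count was also 1 with total counts and with effective lengths as offsets, and 1 to 2 with a library left out. The edgeR test called 2 neighbours higher at Day 2 instead of 1, and without a minimum mean 4 neighbours, *Steap4* and *Fam187b* added, were lower at Day 4. With all 12 libraries in 1 fit, 3 neighbours were called lower on each day, and by edgeR 3 were lower at Day 4. List genes called lower at Day 2 numbered 5 without Day2_EtOH replicate 1 and 9 in the full fit, 5 to 9 over left-out libraries. Signs turned for 6 values that were called in no setting. With effective lengths as offsets these were *Adam22* at Day 2 (-0.0849) and the *Kctd17* difference between the days (0.0974, and -0.142 to 0.0259 with a library left out). The EtOH day difference of *Sri* was 0.00166 by edgeR, 0.0146 with total counts and -0.0543 to 0.0193 with a library left out. With a library left out, log2 length differences ranged from -0.0467 to 0.0565 for *Galnt10* at Day 2, from -0.291 to 0.122 for *Sri* at Day 4 and from -0.0217 to 0.009996 for *Lsr* at Day 4. The cause of these moves was not tested. Of 12 genes of nearest pattern, 10 were kept with a prior count of 5. Few read pairs limit *Nmral1*, *Mpst* and *Madd* at Day 4, and their lengths there most of all.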
